A study of Bos taurus with 12 samples.

Results

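The genes of the microtubule motors kinesin and dynein and of the tubulins were followed through the maturation of bovine oocytes. They were taken from the table of input RNA as the protein-coding genes whose symbol begins with KIF and a digit, DYNC, DYNL, TUBA, TUBB or TUBG. This gave 74 of 16675 genes, of which 14973 were protein-coding. The 74 were 36 kinesins, 8 subunits of cytoplasmic dynein named DYNC1 or DYNC2, 8 dynein light chains, 7 alpha-tubulins, 8 beta-tubulins, and 7 genes of gamma-tubulin and its complex. Kinesins with KIFC symbols and the axonemal dynein heavy chains lie outside this choice. Their m6A peaks were found by gene identifier in the peak lists and in the table of differential peaks.

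The groups were oocytes at metaphase of the second meiotic division (MII), the stage at which a mature oocyte waits for fertilization, and oocytes at the germinal vesicle (GV) stage, in which the nucleus of the first meiotic prophase is still intact. The labels describe both as bovine oocytes cultured in vitro and give no breed, age, culture time or number of oocytes per library. For each stage there were 3 libraries of input poly(A) RNA and 3 of RNA immunoprecipitated with an antibody against N6-methyladenosine (m6A), a methyl mark on adenosines inside messenger RNA. Whether the 3 libraries of a stage stem from different animals or cultures is not stated in the labels, so every p-value measures spread among these libraries only, and that spread may be technical.

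Microtubules are hollow polymers of alpha- and beta-tubulin that are seeded from rings of gamma-tubulin. Kinesins use ATP to walk along them, slide them apart or take their ends to pieces, and cytoplasmic dynein pulls cargo and spindle poles towards the minus end. Oocytes of mammals build the meiotic spindle without the centrioles used by dividing somatic cells, and they lean on motors and on nucleating factors around the chromosomes. The GV oocyte carries an interphase-like microtubule network, whereas the MII oocyte holds an assembled spindle with its chromosomes aligned.

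Levels are FPKM, fragments scaled to transcript length and to the mapped fragments of the library, as deposited for the 6 input libraries. The number of reads behind them is not known. Levels are relative to the poly(A) RNA of each library, so a rise or fall need not be a change in transcripts per oocyte. In poly(A) RNA, a change of transcript amount and one of poly(A) tail cannot be told apart. Between 1282 and 1727 of the 16675 genes were listed at 0 in an MII library, against 3722 to 3765 in a GV library. Spearman's correlation across genes was 0.974 to 0.976 between MII libraries, 0.988 between GV libraries and 0.923 to 0.927 between stages, and genes are not independent replicates. All 14 oocyte markers, GDF9, BMP15 and ZP3 among them, passed the level filter used for testing, and 8 of them were higher and 2 lower in MII, with a median log2 change of 0.25. Their summed level was 4446 to 4642 FPKM in MII libraries and 4031 to 4069 FPKM in GV libraries. Of 22 cumulus and granulosa cell markers 15 were in the table and 8 were tested, of which 2 were higher and 5 lower in MII. The summed level of the 15 was 210.7 to 217 FPKM in the MII libraries and 223 to 236 FPKM in the GV libraries. Most of that was STAR, at a mean of 167 FPKM in MII and 149 FPKM in GV. The other 14 summed to 46.2 to 48.7 FPKM in MII libraries and 76.1 to 82.1 FPKM in GV libraries. The summed level of 5 markers of theca, stroma and blood cells was 38.2 to 39.0 FPKM in MII libraries and 31.2 to 33.1 FPKM in GV libraries. PTX3, HSD3B1 and KRT8 were at 0 in every GV library, and FSHR and INHA in every MII library. The summed level of 5 markers of ciliated cells, another source of motor RNA, was 7.19 to 8.54 FPKM in MII libraries and 4.35 to 5.46 FPKM in GV libraries. The part of other cell types in the results below was not tested. In bulk RNA, fewer cells of a type and less RNA per cell cannot be told apart.

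In MII oocytes 14 of 29 tested kinesin genes were lower and 3 higher. Of 6 beta-tubulin genes 5 were higher and 1 lower, both gamma-tubulin genes were higher, and of 6 dynein light chain genes 4 were higher and 1 lower. Without DYNLT4, which passed the level filter only through MII, 3 of 5 light chain genes were higher and 1 lower. Of the 74 genes, 60 averaged at least 1 FPKM across the input libraries and were tested with limma on log2(FPKM + 1), adjusted by Benjamini-Hochberg over all 11739 genes tested. At an adjusted p under 0.05, 17 were higher in MII, 20 were lower and 23 were not called. These were 28.3% higher and 33.3% lower, against 32.0% higher and 28.8% lower over all tested genes, so each total lay near the background. The median log2 change of the 60 was -0.05, against 0.01 over all tested genes. Libraries of the stages did not overlap for 45 of the 60, against 67.3% of all tested genes. With mitochondrial genes removed and the rest rescaled, 14 of the 60 were higher and 26 lower (23.3% and 43.3%), against 3191 higher and 3936 lower of 11696 genes (27.3% and 33.7%).

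Most of these changes were small. For 46 of the 60 genes the log2 change was under 0.5 in size, and only DYNLL1 and DYNLT4 reached 1. The other 14 genes had values of at most 1.28 FPKM in any library and means of at most 0.908 FPKM. They were DYNLRB2, DYNLT2, KIF2B, KIF6, KIF12, KIF21A, KIF21B, KIF25, KIF26A, TUBA8, TUBAL3, TUBB1, TUBB4A and TUBGCP6. Among these, 9 were listed at 0 in every GV library, and DYNLT2 at 0 in every MII library. KIF2B, a kinesin that dismantles microtubule ends, had 1.05, 1.14 and 1.02 FPKM in MII libraries 1, 2 and 3, against 0.559, 0.656 and 1.03 FPKM in GV libraries 1, 2 and 3. TUBB8, the main beta-tubulin of human oocytes, and DYNLT1 were not found under these symbols and are not analysed here.

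**Figure D1:**
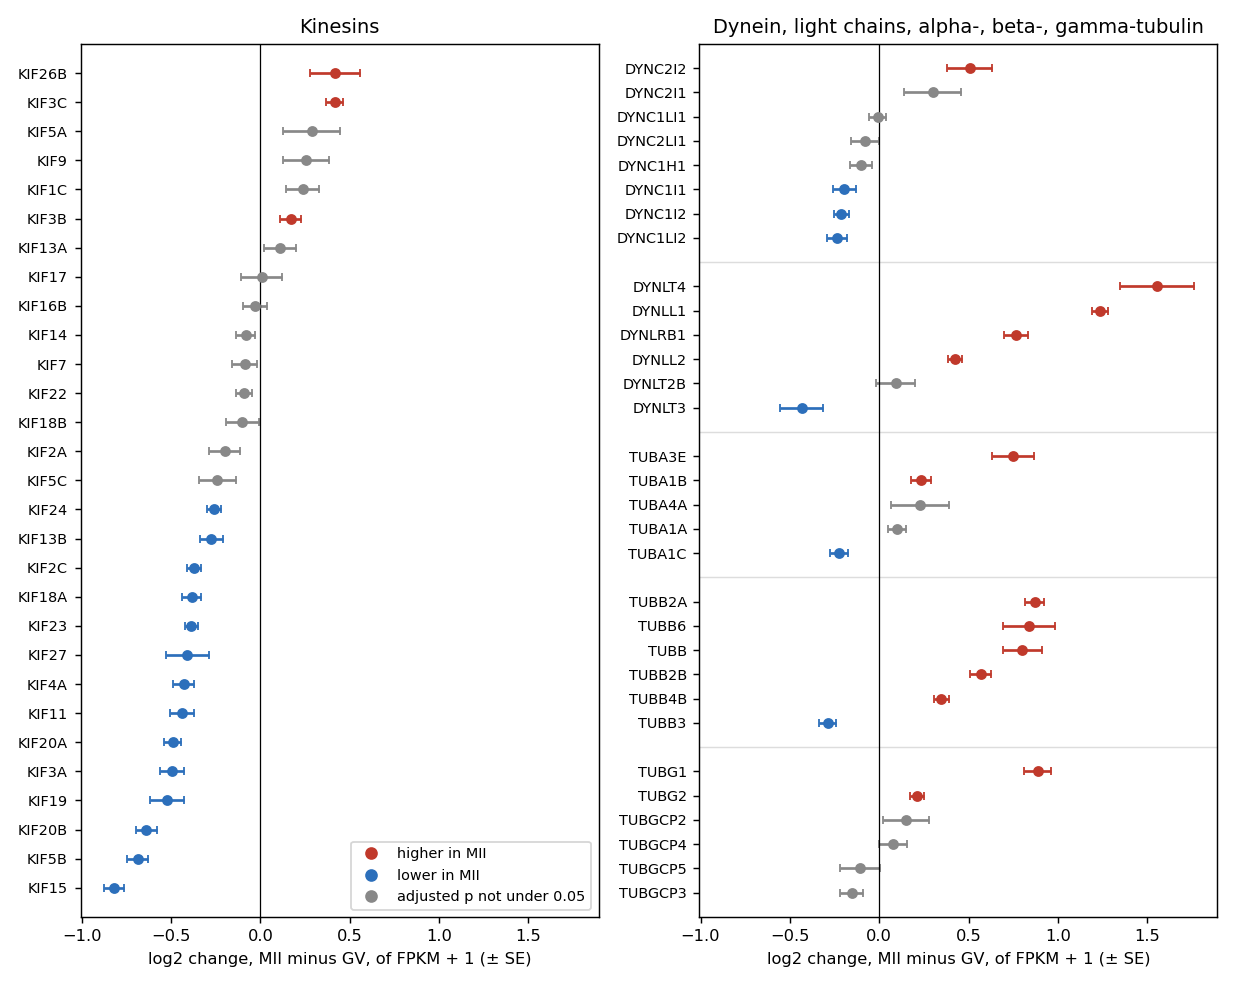
Log2 change of FPKM + 1, MII minus GV, of the 60 tested genes on the x axis, with its standard error from limma, and gene symbols down the y axis, kinesins in the left panel and the other families in the right panel. Red marks the 17 genes called higher in MII, blue the 20 called lower and grey the 23 not called. Kinesin points lie mostly left of 0, down to -0.82 for KIF15, and the beta-tubulin points lie right of 0 except TUBB3.

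Among kinesins, 14 of the 29 tested genes were lower in MII and 3 were higher, with a median log2 change of -0.24. Their summed level, over all 36, was 1186, 1140.5 and 1136 FPKM in MII libraries 1, 2 and 3, against 1479, 1447 and 1458 FPKM in GV libraries 1, 2 and 3. The mean was 1154 ± 27.7 FPKM in MII and 1461 ± 16.1 FPKM in GV (SD, n = 3 each), and the stages did not overlap. With median scaling, or without mitochondrial genes, the kinesins called were 18 lower and 1 higher.

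Among kinesins that build the spindle or divide the cell, 12 of 13 genes were tested, and 8 were lower, none higher and 4 not called, with a median log2 change of -0.38. The summed level of the 13 was 749.8, 723 and 728 FPKM in MII libraries 1, 2 and 3, against 983, 956 and 961 FPKM in GV libraries 1, 2 and 3. KIF15, a plus-end motor that backs up KIF11 in holding spindle poles apart, had the lowest log2 change of all 60 genes. It had 34.5, 31.9 and 32.1 FPKM in MII libraries 1, 2 and 3, against 61.7, 55.6 and 58.5 FPKM in GV libraries 1, 2 and 3. Its log2 change was -0.82 (SE 0.06, limma adjusted p = 2.5e-05), and every MII library was below every GV library. KIF11, the Eg5 motor that slides antiparallel microtubules apart and drives bipolarity, was lower as well. It had 18.2, 17.0 and 18.5 FPKM in MII libraries 1, 2 and 3, against 26.1, 24.6 and 23.1 FPKM in GV libraries 1, 2 and 3, a log2 change of -0.44 (limma adjusted p = 0.00099) with no overlap between the stages.

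KIF20B, a motor of late cytokinesis, had 119, 101 and 109.6 FPKM in MII libraries 1, 2 and 3, against 172, 171 and 171 FPKM in GV libraries 1, 2 and 3. Its log2 change was -0.64 (SE 0.06, limma adjusted p = 8.2e-05). KIF23, the motor subunit of centralspindlin, was among the most abundant kinesins, with 169, 159 and 164 FPKM in MII libraries 1, 2 and 3, against 218, 212 and 213 FPKM in GV libraries 1, 2 and 3. All 3 MII libraries of each gene lay below the GV libraries, and the log2 change of KIF23 was -0.39 (limma adjusted p = 0.00011). KIF20A, which carries the chromosomal passenger complex to the midzone, fell by 0.49 on the log2 scale, with 31.1 ± 0.933 FPKM in MII and 44.2 ± 1.42 FPKM in GV (SD, n = 3 each). KIF4A, a chromosome-bound motor that limits midzone length with PRC1, fell by 0.43, with 28.0 ± 1.60 FPKM in MII and 38.0 ± 1.07 FPKM in GV (SD, n = 3 each). KIF14, a cytokinesis motor, was not called, with 48.6 ± 0.863 FPKM in MII and 51.5 ± 2.91 FPKM in GV (SD, n = 3 each), a log2 change of -0.08 and a limma adjusted p of 0.21.

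The kinesins that shorten microtubules were divided between lower and not called. KIF2C, the centromeric depolymerase MCAK, had 146, 155 and 145 FPKM in MII libraries 1, 2 and 3, against 197, 190.3 and 190.1 FPKM in GV libraries 1, 2 and 3. Its log2 change was -0.37 (limma adjusted p = 0.00017), with all MII libraries below all GV libraries. KIF18A, which dampens chromosome movements at the metaphase plate, fell by 0.38 on the log2 scale, with 26.9 ± 1.23 FPKM in MII and 35.4 ± 0.497 FPKM in GV (SD, n = 3 each). KIF2A, a depolymerase of spindle poles, had 24.0 ± 1.55 FPKM in MII and 27.7 ± 3.03 FPKM in GV (SD, n = 3 each), and its log2 change of -0.20 missed the threshold (limma adjusted p = 0.083). KIF18B was not called, and neither was KIF22, a chromokinesin outside this class, with log2 changes of -0.10 and -0.09. With median scaling or without mitochondrial genes KIF2A, KIF14 and KIF22 passed too, as lower in MII.

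Transport kinesins showed no common direction. Of 13, 11 were tested, and 2 were higher and 3 lower, with a median of 0.0072 on the log2 scale. KIF5B, the ubiquitous heavy chain of conventional kinesin, had 32.9, 31.1 and 29.2 FPKM in MII libraries 1, 2 and 3, against 51.2, 52.2 and 48.2 FPKM in GV libraries 1, 2 and 3. Its log2 change was -0.69 (SE 0.06, limma adjusted p = 6.4e-05), and the stages did not overlap. Its close relatives KIF5A and KIF5C, best known from neurons, were not called, with log2 changes of 0.29 and -0.24. Without MII library 3 the KIF5A value was 0.46 and passed (limma adjusted p = 0.020), and without MII library 1 the KIF5C value was -0.31 and passed (0.048), as it did at -0.33 without GV library 1 (0.025). KIF5C also passed with median scaling (0.031), after quantile normalization (0.036) and without mitochondrial genes (0.035). KIF13B also fell, with a log2 change of -0.27, as did KIF3A, described next.

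The subunits of heterotrimeric kinesin-2 moved apart. In this motor KIF3A pairs with KIF3B or KIF3C and binds cargo through KIFAP3. KIF3A had 121, 102 and 109 FPKM in MII libraries 1, 2 and 3, against 163, 148 and 157 FPKM in GV libraries 1, 2 and 3. KIF3B had 22.4, 21.9 and 22.8 FPKM in MII libraries 1, 2 and 3, against 18.8, 20.3 and 20.2 FPKM in GV libraries 1, 2 and 3. KIF3C had 44.3, 46.4 and 44.0 FPKM in MII libraries 1, 2 and 3, against 34.4, 32.6 and 33.2 FPKM in GV libraries 1, 2 and 3. KIF3A was lower in every MII library (log2 change -0.49, limma adjusted p = 0.00057), while KIF3C was higher in every MII library (log2 change 0.42, limma adjusted p = 0.00024). KIF3B was called higher by a small margin (log2 change 0.17, limma adjusted p = 0.036), a call lost whichever single library was left out (0.057 to 0.11). The ratio of KIF3A to KIF3B was 5.43, 4.66 and 4.77 in MII libraries 1, 2 and 3, against 8.68, 7.32 and 7.75 in GV libraries 1, 2 and 3. KIFAP3 itself rose by 0.59 on the log2 scale, with 8.83 ± 1.03 FPKM in MII and 5.64 ± 1.54 FPKM in GV (SD, n = 3 each).

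Of 6 tested kinesins outside these classes, 3 were lower and 1 higher. KIF19, which trims ciliary microtubules in mice, fell by 0.52 on the log2 scale, with 4.32 ± 0.268 FPKM in MII and 6.64 ± 0.355 FPKM in GV (SD, n = 3 each). KIF24, which acts on centriolar microtubules, fell by 0.26, with 76.4 ± 1.28 FPKM in MII and 91.5 ± 2.29 FPKM in GV (SD, n = 3 each). KIF27 had 2.59 ± 0.343 FPKM in MII and 3.76 ± 0.177 FPKM in GV (SD, n = 3 each), and its call (log2 change -0.41, limma adjusted p = 0.020) was lost without MII library 2 (0.059), GV library 2 (0.061) or GV library 3 (0.054). KIF26B was higher at 1.71 ± 0.231 FPKM in MII and 1.03 ± 0.161 FPKM in GV (SD, n = 3 each), with a limma adjusted p of 0.033, and that call was lost without MII library 2 (0.0905), GV library 1 (0.057), GV library 2 (0.10) or GV library 3 (0.059).

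**Figure D2:**
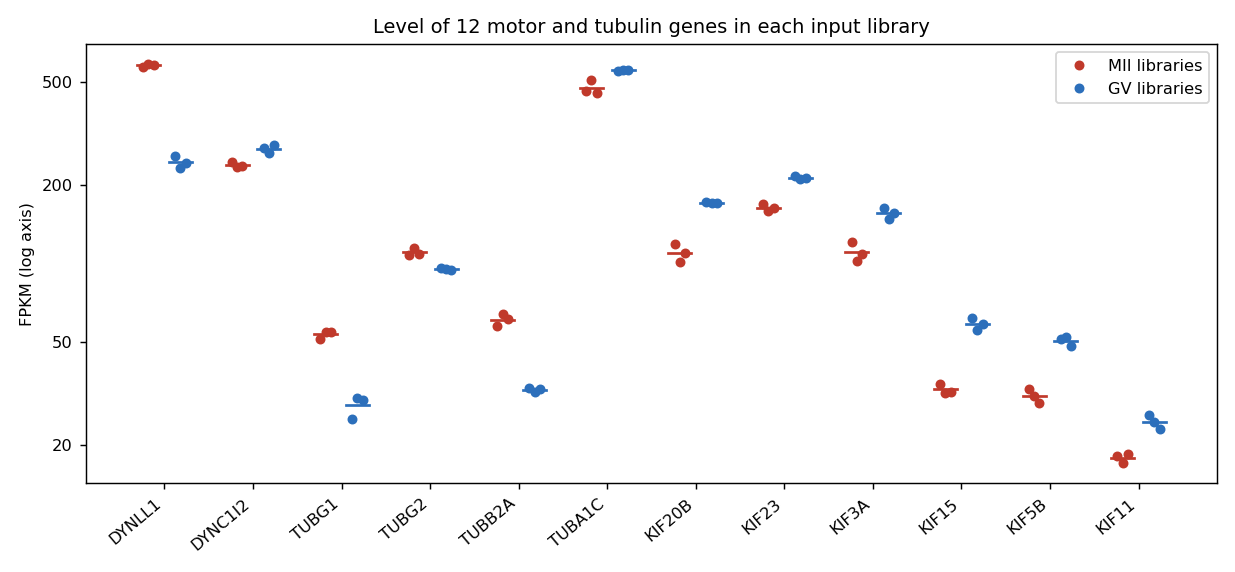
FPKM on a log axis for 12 genes in each of the 3 MII libraries (red) and 3 GV libraries (blue), with a bar at each stage's mean. DYNLL1, TUBG1, TUBG2 and TUBB2A lie higher in MII, and the 8 other genes, from DYNC1I2 to KIF11, lie lower, with no overlap between stages for any of the 12.

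Cytoplasmic dynein-1 differed little between stages in its motor subunits. DYNC1H1, the heavy chain that holds the motor domain, had 18.4, 18.9 and 17.8 FPKM in MII libraries 1, 2 and 3, against 20.3, 20.2 and 18.9 FPKM in GV libraries 1, 2 and 3. The MII values lay below the GV values by a narrow margin, and the log2 change of -0.10 was not called (limma adjusted p = 0.18). It passed as lower with median scaling (0.033) and without mitochondrial genes (0.046). DYNC1I2, an intermediate chain that binds dynactin, had 245, 234 and 237 FPKM in MII libraries 1, 2 and 3, against 278, 265 and 286 FPKM in GV libraries 1, 2 and 3. It was lower in all MII libraries, with a log2 change of -0.21 (SE 0.04, limma adjusted p = 0.0030). DYNC1LI2, a light intermediate chain for cargo adaptors, fell by 0.24, with 27.7 ± 0.562 FPKM in MII and 32.8 ± 1.60 FPKM in GV (SD, n = 3 each), while its paralogue DYNC1LI1 had 246 ± 12.5 FPKM in MII and 247 ± 6.36 FPKM in GV (SD, n = 3 each) and a limma adjusted p of 0.87. DYNC1I1 fell by 0.19 (limma adjusted p = 0.034), a call lost without MII library 1 (0.099), MII library 3 (0.085), GV library 1 (0.062) or GV library 2 (0.11). In all, 3 of these 5 subunits were lower and none higher. Of 3 subunits of dynein-2, the motor of intraflagellar transport, DYNC2I2 rose by 0.51 on the log2 scale, with 4.91 ± 0.147 FPKM in MII and 3.18 ± 0.526 FPKM in GV (SD, n = 3 each). DYNC2I1 and DYNC2LI1 were not called, with log2 changes of 0.30 and -0.08, and DYNC2I1 passed at 0.44 without GV library 1 (limma adjusted p = 0.036).

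Light chains are small dimers at the tail of dynein. Of 6 tested, 4 were higher and 1 was lower, with a median log2 change of 0.60. Without DYNLT4, which passed the filter on level only through MII, 3 of 5 were higher and 1 lower, with a median of 0.42. DYNLL1, the LC8 light chain, which also binds many proteins outside dynein, was the most abundant motor gene in MII. DYNLL1 had 571, 586 and 581 FPKM in MII libraries 1, 2 and 3, against 259, 233 and 243 FPKM in GV libraries 1, 2 and 3. Every MII library was far above every GV library, with a log2 change of 1.24 (SE 0.04, limma adjusted p = 1.5e-06). The ratio of DYNLL1 to DYNC1H1, both per length, was 31.5 ± 0.967 in MII and 12.4 ± 0.742 in GV (SD, n = 3 each). Its paralogue DYNLL2 had 166, 165 and 166 FPKM in MII libraries 1, 2 and 3, against 119.6, 128 and 122 FPKM in GV libraries 1, 2 and 3. It was higher in every MII library by a smaller log2 change of 0.42 (limma adjusted p = 7.1e-05), and the ratio of DYNLL1 to DYNLL2 was 3.50 ± 0.0553 in MII and 2.00 ± 0.169 in GV (SD, n = 3 each). The proteins of DYNLL1 and DYNLL2 are nearly identical, and the sources used here do not give how shared reads were divided.

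DYNLRB1, the roadblock light chain, had 45.9, 46.9 and 40.4 FPKM in MII libraries 1, 2 and 3, against 25.4, 25.1 and 26.5 FPKM in GV libraries 1, 2 and 3. It was higher in every MII library, with a log2 change of 0.77 (limma adjusted p = 6.3e-05). DYNLT3, a Tctex-type light chain, was the exception, with 5.32 ± 0.595 FPKM in MII and 7.54 ± 0.890 FPKM in GV (SD, n = 3 each) and a log2 change of -0.43 (limma adjusted p = 0.015). That call was lost without MII library 1 or GV library 1 (0.051 each). DYNLT4 had 2.52, 1.93 and 3.13 FPKM in MII libraries 1, 2 and 3, against 0.122, 0.494 and 0 FPKM in GV libraries 1, 2 and 3, so it passed the filter on level only through MII, and its log2 change of 1.56 describes a gene with low values. DYNLT2B was not called, with a log2 change of 0.09.

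Of 17 alpha-, beta- and gamma-tubulin genes 13 were tested, and 9 were higher and 2 lower, with a median log2 change of 0.35. After quantile normalization, or without mitochondrial genes, 8 were higher. TUBA1A, TUBA1B and TUBA1C code for nearly the same protein, as do TUBB2A and TUBB2B, so reads may have been divided between them by the authors' counting, and the values of single members are uncertain. TUBA1A and TUBA1B stand 38.7 kb apart on chromosome 5 with TUBA1C nearby on the other strand, and TUBB2A and TUBB2B stand 30.8 kb apart on chromosome 23.

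Alpha-tubulin as a whole did not separate the stages. The summed level was 756, 843 and 754 FPKM in MII libraries 1, 2 and 3, against 805, 821 and 816 FPKM in GV libraries 1, 2 and 3, and these ranges overlapped. Within the sum, the balance of genes differed. TUBA1C, the most abundant alpha-tubulin, had 460.2, 509 and 453 FPKM in MII libraries 1, 2 and 3, against 552, 553 and 554 FPKM in GV libraries 1, 2 and 3. It was lower in every MII library (log2 change -0.22, limma adjusted p = 0.0052), and its share of alpha-tubulin was 60.4% ± 0.396 in MII and 68.0% ± 0.601 in GV (SD, n = 3 each). TUBA1B had 216, 245 and 219 FPKM in MII libraries 1, 2 and 3, against 189, 195 and 193 FPKM in GV libraries 1, 2 and 3, all higher in MII (log2 change 0.23, limma adjusted p = 0.0069), although the call was lost after quantile normalization (0.076) and without mitochondrial genes (0.054). TUBA3E, a minor gene, rose by 0.75, with 26.2 ± 2.36 FPKM in MII and 15.3 ± 2.56 FPKM in GV (SD, n = 3 each), and TUBA1A and TUBA4A were not called, with log2 changes of 0.10 and 0.23.

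The summed level of the 8 beta-tubulin genes found was 237, 251 and 242 FPKM in MII libraries 1, 2 and 3. In GV libraries 1, 2 and 3 it was 194, 192 and 189 FPKM. All 6 tested genes were called, 5 higher and 1 lower. TUBB2A had 57.3, 64.1 and 61.0 FPKM in MII libraries 1, 2 and 3, against 33.3, 32.1 and 32.9 FPKM in GV libraries 1, 2 and 3. Its log2 change was 0.87 (SE 0.05, limma adjusted p = 1.5e-05), and all MII libraries were above all GV libraries. TUBB3, a class III beta-tubulin best known from neurons, had 58.8, 59.4 and 54.8 FPKM in MII libraries 1, 2 and 3, against 69.4, 72.1 and 70.3 FPKM in GV libraries 1, 2 and 3. It was lower in every MII library (log2 change -0.29, limma adjusted p = 0.0013).

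TUBB3 made up 23.7% ± 1.08 of beta-tubulin in MII and 36.8% ± 1.01 in GV, and TUBB2A 25.0% ± 0.73 in MII and 17.1% ± 0.318 in GV (SD, n = 3 each). Among the 8 genes found, TUBB3 thus had the largest share in GV, whereas TUBB4B did in MII. TUBB8, not found under that symbol, is not in the beta-tubulin sums, shares or ratio given here. TUBB4B, a beta-tubulin of broad expression, rose by 0.35 on the log2 scale, with 77.3 ± 1.03 FPKM in MII and 60.5 ± 1.96 FPKM in GV (SD, n = 3 each). TUBB, TUBB6 and TUBB2B rose by 0.80, 0.84 and 0.57, and TUBB6 was the least abundant of them, with 7.69, 10.6 and 11.9 FPKM in MII libraries 1, 2 and 3, against 5.05, 5.10 and 5.15 FPKM in GV libraries 1, 2 and 3. The ratio of alpha-tubulin to beta-tubulin sums was 3.23 ± 0.126 in MII and 4.24 ± 0.0927 in GV (SD, n = 3 each), with no overlap between stages.

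**Figure D3:**
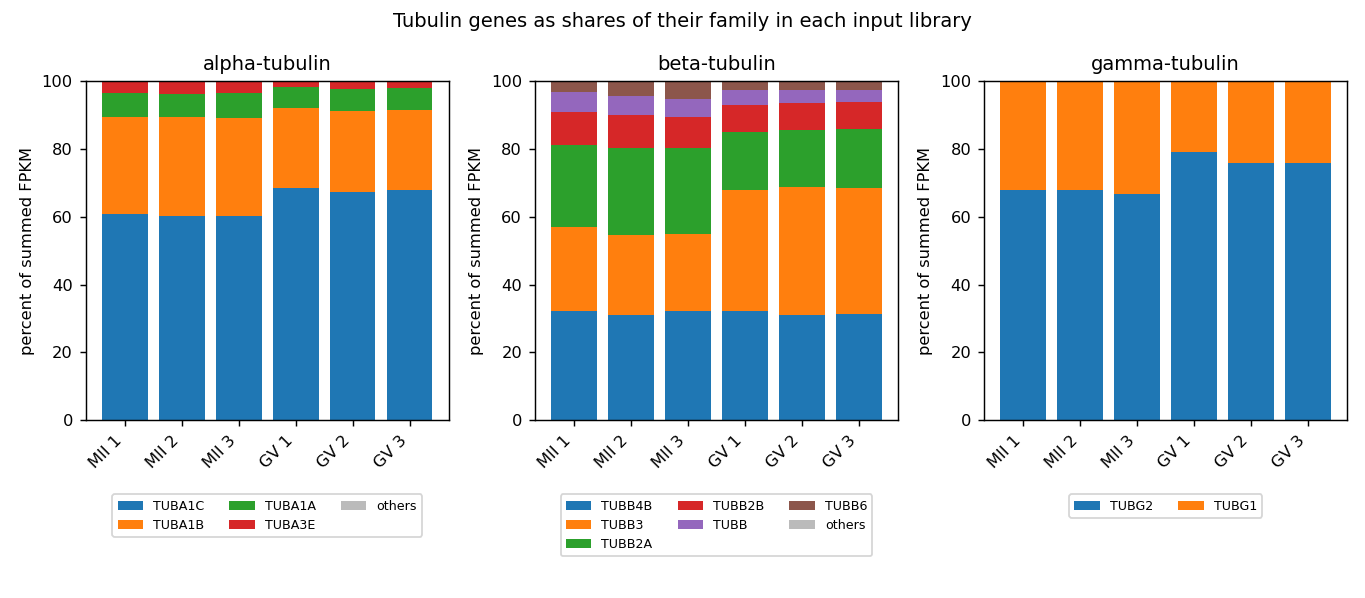
Share of each gene in the summed FPKM of its tubulin family (y axis, percent) in the 3 MII and 3 GV input libraries, for alpha-, beta- and gamma-tubulin. TUBB8 was not found under that symbol and is not in these sums. TUBB3 takes 22.7% to 24.8% of beta-tubulin in MII libraries and 35.7% to 37.6% in GV libraries, and TUBG1 takes 32.1% to 33.4% of gamma-tubulin in MII libraries and 20.8% to 24.1% in GV libraries.

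Both gamma-tubulin genes rose while the genes of the proteins that hold gamma-tubulin in its ring did not pass the test. TUBG1 (chromosome 19, 42676073 to 42680834) had 51.2, 54.3 and 54.5 FPKM in MII libraries 1, 2 and 3, against 25.2, 30.3 and 30.0 FPKM in GV libraries 1, 2 and 3. Its log2 change was 0.89 (SE 0.08, limma adjusted p = 6.1e-05), and the stages did not overlap. TUBG2 (chromosome 19, 42720105 to 42725012) had 108, 115 and 109 FPKM in MII libraries 1, 2 and 3, against 95.8, 95.4 and 94.8 FPKM in GV libraries 1, 2 and 3. It was the more abundant of the pair in every library, and its log2 change was 0.21 (limma adjusted p = 0.0027). The genes lie 39.3 kb apart on the same strand and their sequences are close, so a division of shared reads can enter both values. TUBG1 made up 32.6% ± 0.731 of their sum in MII and 23.0% ± 1.87 in GV (SD, n = 3 each).

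Of the complex proteins, which carry the symbols TUBGCP2 to TUBGCP6, 4 were tested and none was called. TUBGCP3 had 18.4, 18.4 and 18.3 FPKM in MII libraries 1, 2 and 3, against 20.0, 22.0 and 19.7 FPKM in GV libraries 1, 2 and 3, with a log2 change of -0.15 (limma adjusted p = 0.067). It passed as lower with median scaling (0.016), quantile normalization (0.020) and without mitochondrial genes (0.018). TUBGCP2, TUBGCP4 and TUBGCP5 had log2 changes of 0.15, 0.08 and -0.11. The summed level of the 5 was 48.9, 50.4 and 48.7 FPKM in MII libraries 1, 2 and 3, against 50.2, 51.0 and 52.9 FPKM in GV libraries 1, 2 and 3.

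Genomic length moved with these differences. The median span from start to end of the gene was 5.44 kb for the 17 genes higher in MII, 57.5 kb for the 20 lower genes and 38.3 kb for the 23 not called. Among all tested genes the same medians were 12.5, 35.2 and 22.6 kb. Spearman's rho between span and log2 change was -0.59 over the 60 genes and -0.20 over all 11739, across genes that share the same libraries. Of 17 genes shorter than 10 kb, 12 were higher and 3 lower, against 42.3% and 20.0% of all tested genes of that length. Of 43 longer ones, 5 were higher and 17 lower, against 27.0% and 33.1% of all longer genes. Tubulin and light chain genes are short and kinesin genes long, and the part of length in the results was not tested.

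The partners of these proteins were read from lists of 112 genes, 110 of them in the table and 105 tested. Of the 105, 36 were higher and 28 lower in MII, or 34.3% and 26.7%, near the 32.0% and 28.8% of all tested genes. Among the 105, 3 averaged under 1 FPKM in 1 stage (ACTR1B, ATAT1 and MAP9, given below). Factors of spindle assembly and microtubule nucleation resembled the spindle kinesins in direction, with 5 of 36 higher and 15 lower. TPX2, which promotes microtubule nucleation near chromosomes, had 133 ± 2.19 FPKM in MII and 183 ± 1.18 FPKM in GV (SD, n = 3 each), a log2 change of -0.46 and a limma adjusted p of 2.9e-05. PRC1, the midzone bundler that recruits KIF4A, had 339 ± 9.47 FPKM in MII and 464 ± 5.70 FPKM in GV (SD, n = 3 each), a log2 change of -0.45 and a limma adjusted p of 4.0e-05. NEDD1, which brings gamma-tubulin complexes to the spindle, fell by 0.72 on the log2 scale and HMMR, a protein of spindle poles, by 0.78. RCC1 and RAN, which mark chromatin as the site of assembly, rose by 0.88 and 0.46.

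Genes for folding and modifying tubulin were higher more often than lower, with 15 of 26 higher and 2 lower. ATAT1, counted as higher, averaged 1.47 FPKM in MII and 0.786 FPKM in GV, so it passed the filter only through MII. TBCA, a chaperone that holds beta-tubulin, rose by 1.11, the prefoldin subunits PFDN5 and PFDN6 by 1.09 and 1.02, and SVBP, a partner of the enzymes that trim the tubulin tail, by 1.03. CCT8, of the chaperonin that folds tubulin, fell by 0.29, and TUBE1, epsilon-tubulin, by 0.72. Of 9 kinesin light chains and partners 5 were higher and none lower, led by KLC3 at a log2 change of 1.01. Dynactin and dynein adaptors were divided, with 8 of 25 higher and 9 lower (32.0% and 36.0%), near the shares of all tested genes. ACTR1B, counted as higher, averaged 1.70 FPKM in MII and 0.499 FPKM in GV, so it passed the filter only through MII. Among the 25 were NUMA1, which anchors dynein at spindle poles and fell by 0.59, and DCTN6, which rose by 0.52. Microtubule-associated proteins had 3 of 9 higher and 2 lower, and MAP9 had 0.601 FPKM in MII and 2.61 FPKM in GV on average, so it passed the filter only through GV.

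**Figure D4:**
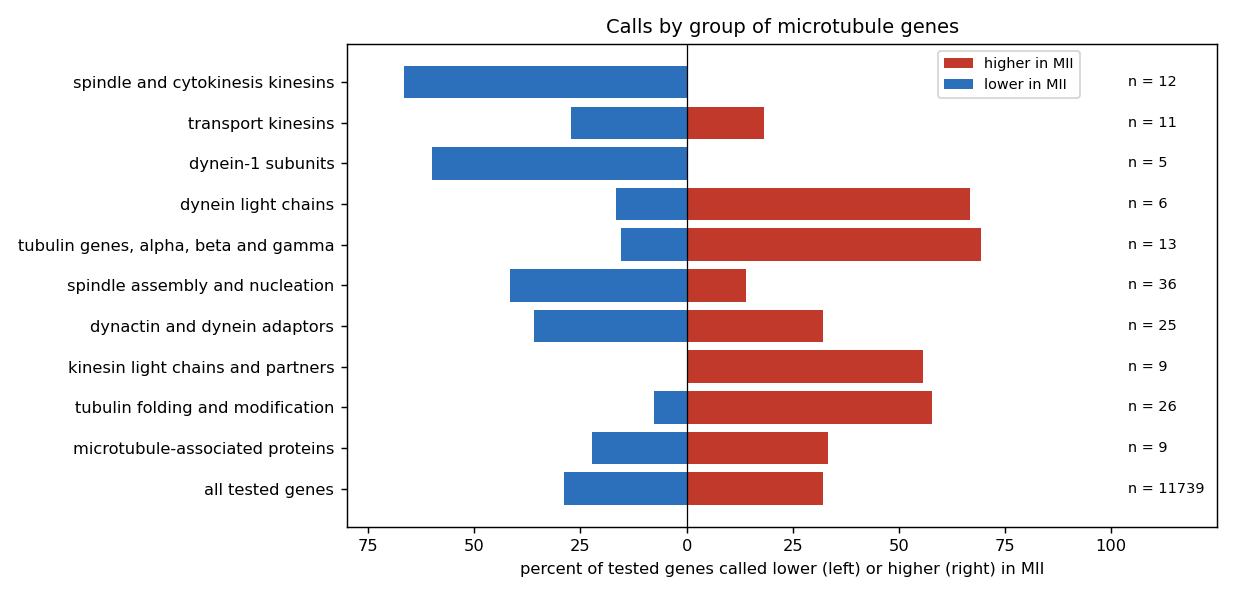
Percent of tested genes called lower (blue, to the left) or higher (red, to the right) in MII for 5 groups of motor and tubulin genes, 5 lists of partners and all 11739 tested genes, with the number tested at the right. Spindle and cytokinesis kinesins have 8 of 12 lower and none higher, and tubulin genes have 9 of 13 higher and 2 lower, against 32.0% higher and 28.8% lower over all genes.

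Messages of these motors and tubulins often carried m6A peaks. Peaks came as 1 list per stage without replicates, and an enrichment is the authors' log2 value of immunoprecipitate over input for the peak. The MII list held 170 peaks in 60 of the 74 genes, and the GV list 128 peaks in 46. Every listed peak had an unadjusted p under 0.05 as deposited. An adjusted p under 0.05 was reached by 148 of the 170 and 97 of the 128. In the full lists 18416 of 22298 MII peaks and 10791 of 14222 GV peaks reached it. The counts of peaks below take every listed peak. Of the 60 genes tested for expression, 57 had an MII peak (95.0%) and 46 a GV peak (76.7%). Among all tested protein-coding genes the shares were 78.1% with an MII peak and 57.3% with a GV peak. The 60 were also more abundant and longer than these, with a median level of 25.4 against 11.2 FPKM and a median span of 36.5 against 23.7 kb, whose part in the difference was not tested.

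All 29 tested kinesins had an MII peak and 27 a GV peak. The only GV peaks of KIF17, KIF19, KIF22 and KIF26B had deposited adjusted p-values of 0.074 to 0.20. The MII peaks of KIF26B had 0.068 and 0.052. Of the 14 dynein genes tested, 13 had an MII peak and 11 a GV peak. The only GV peaks of DYNC2I2 and DYNLT2B had deposited adjusted p-values of 0.10 and 0.20. Among 11 alpha- and beta-tubulins there were 9 with an MII peak and 7 with a GV peak, and TUBB and TUBB6 had one in GV alone. The only GV peaks of TUBB6, TUBB2B and TUBA1C had deposited adjusted p-values of 0.10, 0.10 and 0.076. The only MII peak of TUBA4A had 0.059. Genes of gamma-tubulin and its complex stood apart in their counts, with a peak in 6 of 6 in MII and in 1 of 6, TUBGCP4, in GV. DYNLT4 had none in either list.

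Peaks of one stage partly coincided with those of the other. With an overlap of 1 bp or more on one strand, 78 of 170 MII peaks overlapped a GV peak and 89 of 128 GV peaks overlapped an MII peak. These were 45.9% of MII and 69.5% of GV peaks, against 39.9% and 64.1% of all peaks in the lists. With a reciprocal overlap of 50% of each span, 32 peaks in each list did, which were 18.8% of MII and 25.0% of GV peaks, against 17.7% and 27.8% of all. The median log2 enrichment was 1.61 in MII and 2.48 in GV, close to the 1.67 and 2.62 of all peaks, and efficiency of the precipitation was not examined, so these medians do not compare methylation between the stages. Exonic peaks made up 70.0% of MII and 74.2% of GV peaks, against 61.6% and 65.6% of all peaks in the lists. Peaks over the start codon numbered 16 in MII and 6 in GV (9.41% and 4.69%), against 10.48% and 5.90% of all peaks. Those over the stop codon numbered 12 and 7 (7.06% and 5.47%), against 6.18% and 9.30% of all. Those in the 3′ UTR numbered 13 and 17 (7.65% and 13.28%), against 14.39% and 14.03% of all. Those in the 5′ UTR numbered 10 and 3 (5.88% and 2.34%), against 6.27% and 4.33% of all. Differences in these shares were not tested.

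Kinesin peaks were 102 of the 170 MII peaks (60.0%) and 92 of the 128 GV peaks (71.9%). In the MII list KIF13B had an exonic peak at 3.89 (chromosome 8, 9586840 to 9586899), TUBG2 one at 3.88 and KIF3B one at 3.87. In the GV list KIF14 had an exonic peak at 5.24 (chromosome 16, 79250145 to 79252619) and KIF13A one at 5.21, and KIF3B had a start codon peak at 5.11. KIF3B, one of the KIF3A partners, was thus near the top among the peaks of these genes at both stages. The highest values over all peaks were 5.67 in MII and 8.11 in GV. DYNC1H1 carried 9 MII and 3 GV peaks along its message, the most of any of these genes in MII, while KIF15 carried the most in GV, with 8. Positions are the authors', counted from 1, on a build that the sources used here do not give, and the span of a peak includes introns.

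The authors' deposited table of differential peaks listed 92 peaks in 42 of the 74 genes. At its adjusted p under 0.05, 66 of them were higher in MII (71.7%) and 21 lower (22.8%), while 63.0% of all 8682 peaks in the authors' deposited table were higher and 31.0% lower. The median log2 change in the authors' deposited table was 1.10 for these 92 peaks and 1.03 for all. Of the 92, 43 had no counterpart in the GV list, and 42 of those were higher in MII, whereas 7 of 10 with no counterpart in the MII list were lower. Of 39 peaks that met both lists, 32 had the same sign as the difference in enrichment. The lists and the differential peaks come from the same series of libraries, so such a match was largely set in advance. It is no separate evidence for the changes, and the same counts over all 8682 peaks were not taken.

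Gamma-tubulin and its complex held 3 of the 6 highest log2 changes among these peaks. In the authors' deposited table TUBG2 had a peak over its start codon at a log2 change of 3.18 (chromosome 19, 42720194 to 42721392) and an exonic one at 4.57 (chromosome 19, 42724156 to 42724388). TUBG1 had the same arrangement in the authors' deposited table, with 1.79 over its start codon (chromosome 19, 42676073 to 42677963) and 2.80 in an exon. Both genes also rose in input RNA, as given above. TUBGCP2 had 4.24 in the 5′ UTR and TUBGCP3 had 3.45 in an exon, per the authors' deposited table, at input levels that were not called different. TUBGCP4 had changes of both signs in the authors' deposited table, 1.91 in an exon and -1.94 in the 3′ UTR.

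Kinesin peaks in the authors' deposited table ranged from -3.36 to 4.75. KIF13A held in the authors' deposited table both the highest log2 change of the 92, 4.75 in the 3′ UTR, and one of the lowest, -3.36 in an exon. KIF16B had 3.75 and KIF4A had 3.56 over its start codon in the authors' deposited table. KIF14 had 3 lower and 2 higher peaks there, from -2.89 to 3.42 in the authors' deposited table, in neighbouring exonic intervals. Peaks of both directions at an adjusted p under 0.05 were found in 9 genes, 8 of them kinesins. Kinesins held 57 of the 92 peaks, in 22 of the 42 genes, and the same count over all genes was not taken. The lowest value among the 92 in the authors' deposited table was -4.08, over the start codon of DYNC2I1.

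**Figure D5:**
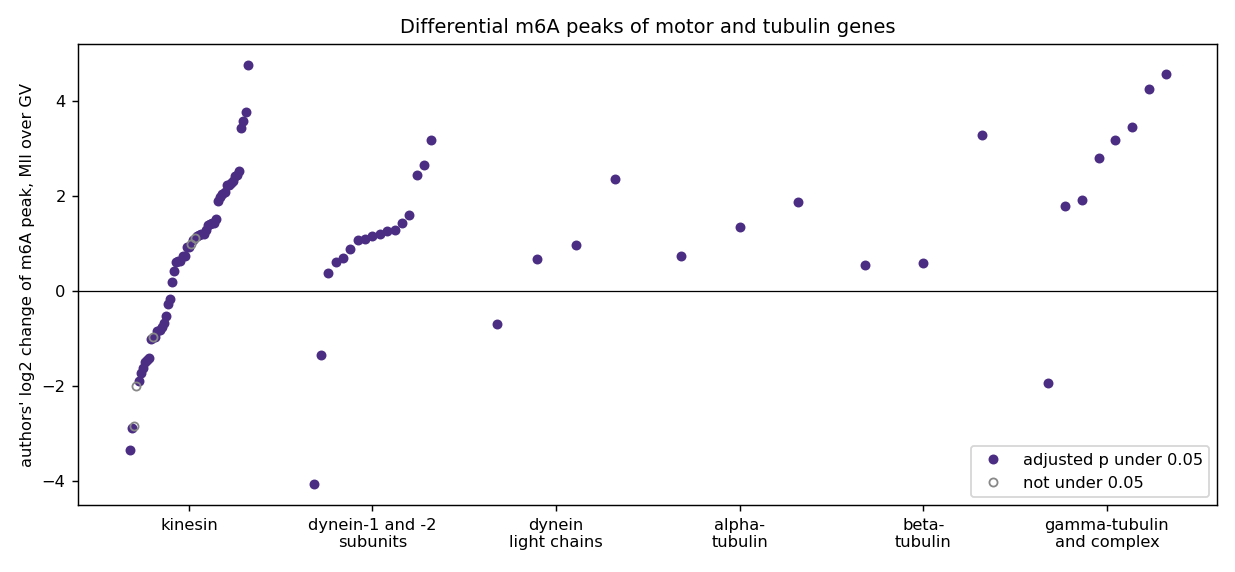
Log2 change, MII over GV, of the 92 differential m6A peaks in the authors' deposited table (y axis), sorted within 6 gene families along the x axis, with open circles for peaks whose adjusted p was not under 0.05. Of the 8 peaks of gamma-tubulin and its complex 7 lie above 0, and kinesin peaks range from -3.36 to 4.75.

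Input level and m6A change ran the same way in some of these genes and opposite ways in others. In 27 genes all differential peaks at an adjusted p under 0.05 were higher in MII, and of these genes 6 were higher and 11 lower in input RNA. In 6 genes they were all lower, with 3 higher and 2 lower in input RNA. Over all tested genes 32.0% were higher and 28.8% lower in input RNA. The same counts for all genes with differential peaks were not taken. Kinesins, with 14 of 29 lower in input RNA, are among the genes of both classes. KIF15 belonged to the first class, with 4 peaks from 0.63 to 1.38 in the authors' deposited table beside the lowest log2 change in input. KIF5B likewise had 4 higher peaks, up to 2.30 over its start codon in the authors' deposited table, and KIF20A had 2, at 2.41 and 2.43. DYNLL1 was the reverse, with a stop codon peak at -0.705 in the authors' deposited table while its input level was higher in MII. The authors' own mark of significance, which this peak lacked, was not used for these classes. The sources used here do not give how input level entered the authors' deposited table, and no relation between both measures was tested.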

How the data were processed

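The authors deposited FPKM for each gene in each input library. Tools named in the submitters' processing notes, without their roles, were fastp 0.19.4 and HISAT2 2.0.4, then StringTie 2.1.2 and HOMER 4.10 and also edgeR 4.1. Poly(A) RNA was fragmented, per the labels' protocols, precipitated with an m6A antibody and made into strand-marked, paired libraries. Peak enrichments and differential changes were log2 values deposited by the authors, and their p-values and adjusted p-values were used as deposited. The sources used here do not give the genome build, the annotation or how libraries were combined into a peak list. Immunoprecipitated libraries had no values of their own in the analysis. Whole reads were not recovered from the FPKM values, so no count test was run and depth is unknown. Peak starts count from 0 in the deposited files, since 1672 MII peaks and 861 GV peaks begin 1 base before the gene start, and are printed from 1.

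Groups followed the titles in the labels. The 6 input libraries were compared on log2(FPKM + 1) by a 2-sided test in limma 3.58.1 under R 4.3.3, with trended eBayes. Genes averaging at least 1 FPKM entered, and p-values were adjusted over all 11739 of them. A change on this scale understates that of low genes. The fit was tested on simulated data. Overlap of peaks needed 1 bp on the same strand. Tables and figures were made in Python 3.11.15. The genes and lists were chosen with earlier results of these data known. Named were the 12 largest and 12 smallest called changes with stages not overlapping, a set of spindle and main motor genes, the 10 most abundant genes, and the highest and lowest peaks. KIF3C, KIF5A, KIF5C, KIF7, KIF13B, KIF24, TUBB3, DYNC1I1, DYNC2LI1, DYNLT2B, the partner genes and the additional differential peaks given were named after their values were seen. Alternatives were pseudocounts of 0.1 and 0.5 FPKM, other filters and scalings, eBayes without trend, a replicate block, each library left out, and stricter peak rules. No sequences were used.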

Additional observations from a re-analysis of the deposited data

How the results depend on the processing

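Of the 37 genes called, 31 kept their call under all 15 alternative settings that tested them, and 6 lost it in at least 1, as given beside each gene (KIF3B, KIF26B, KIF27, TUBA1B, DYNC1I1, DYNLT3). KIF26B was also lost with median scaling (limma adjusted p = 0.059), after quantile normalization (0.26) and without mitochondrial genes (0.056), KIF3B with these settings (0.17, 0.12 and 0.25), and DYNC1I1 in eBayes without trend (0.065). Of the 23 genes not called, 9 passed in at least 1 setting, among them KIF1C at 0.24 in eBayes without trend (0.036). Median scaling gave 15 higher and 26 lower among the 60 genes, and 3304 higher and 3960 lower over all genes, against 3761 and 3379 in the scaling as deposited. Quantile normalization gave 14 and 22 (3255 and 3990 over all), removing mitochondrial genes 14 and 26 (3191 and 3936), and a filter at 5 FPKM 14 and 19 of 53 (2677 and 2687). With no filter, 19 of 74 were higher and 21 lower (5095 and 3603 over all), and the median log2 change of these genes turned to 0.035, because 14 low genes entered. The median was -0.12 with median scaling and -0.13 without mitochondrial genes. Leaving out 1 library at a time gave 15 to 17 higher and 18 to 19 lower genes, and over all genes 3319 to 3553 and 2881 to 3107. Deviations of same-numbered libraries correlated at -0.055, -0.060 and 0.013, against -0.011 to 0.065 for libraries of different numbers. With 3 libraries per stage, these values cannot settle whether same-numbered libraries were paired. A fit with the replicate number as a block gave 15 higher and 20 lower (3612 and 3201 over all), without KIF3B and KIF26B. Counting only peaks above the median enrichment of their list left 30 genes with a GV peak and 26 with peaks in both lists, against 46 and 44, and a reciprocal overlap of 50% left 32 of 170 MII peaks and 32 of 128 GV peaks overlapping. FPKM without read counts leaves the precision of low genes unknown, and 1 peak list per stage leaves peak differences without replicate spread. Counts for kinesins and tubulins alone, the median of the 60 genes and the genes with peaks in both lists were put through the same alternatives after the data had been seen.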
